A study of Saccharomyces cerevisiae with 4 samples.

Results

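The comparison of the Xrn1-TAP library with the no-TAP library described here rests on 2 of the 4 ChIP-exo libraries of the series, both from Saccharomyces cerevisiae grown in YPD, a rich glucose medium. The Xrn1-TAP cells carried XRN1 fused to a TAP tag, which contains protein A and is caught by IgG. The no-TAP cells carried no tag, went through the same IgG pull-down, and so give the background of the assay. Both are labelled with the background strain yMC458, and no other allele, agent or age is given. Libraries of DCP2-TAP and LSM1-TAP cells of the same background, in which a subunit of the decapping enzyme or of the Lsm ring that promotes decapping carried the tag, are quoted beside them in a few places. The series text speaks of 2 replicates, but each strain has 1 file and whether it sums both is not given. The comparison is therefore of 1 library a side: the intervals below are exact 95% intervals for counting error alone, no value has a replicate check, and no p-value is given.

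Xrn1 is the main cytoplasmic 5′ to 3′ exonuclease of yeast and degrades mRNAs from which the cap has been removed. It has also been studied as a protein that enters the nucleus and is found on chromatin of genes that are being transcribed, and that question lies behind a pull-down of DNA with a decay enzyme. In ChIP-exo, the crosslinked fragments are digested by exonuclease up to the bound protein, so the 5′ ends of forward-strand tags mark one border of the protein and those of reverse-strand tags the other. In such an assay an untagged strain measures which DNA is recovered without the tag.

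The Xrn1-TAP library held 158105 tags at 18481 distinct positions, a position being an index and strand counted once, and the no-TAP library held 33412 tags at 4743 positions. Xrn1-TAP thus had 3.90 times the positions (3.77 to 4.02) and 4.73 times the tags (4.68 to 4.79) of no-TAP. An Xrn1-TAP position carried 8.56 tags on average and 6 at the median, and a no-TAP position 7.04 and 4. Positions seen by a single tag made up 25.4% in Xrn1-TAP (24.8 to 26.1) and 29.9% in no-TAP (28.6 to 31.2), while those with 10 or more tags made up 37.1% and 27.2% of the same libraries. Since PCR copies can pile up at a position and cannot be told from separate fragments in these counts, positions are the main unit below. Tags stand beside them, and intervals from tags are too narrow as far as tags are copies. All ratios are of counts scaled to the library total, so they compare where the 2 libraries lie and not how much DNA was recovered. Genes were placed with the R64 gene table, leaving out chromosome XI, where the files are offset from that table by 370 bp, which leaves 15 of 16 chromosomes, 17686 positions of Xrn1-TAP and 4542 of no-TAP.

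Xrn1-TAP positions were spread over the gene classes much as no-TAP positions were. Upstream regions, tRNA genes, snoRNA genes and above all the ribosomal DNA were denser in positions than the genome at large, and coding regions were sparser, in both libraries. In the 300 bp upstream of start codons there were 4315 Xrn1-TAP and 1158 no-TAP positions, a scaled ratio of 0.956 (0.896 to 1.02). Coding regions held 8380 and 2131 positions, which is 0.650 and 0.644 times an even spread, and a ratio of 1.01 (0.962 to 1.06). The 300 bp past stop codons held 3417 and 925, a ratio of 0.948 (0.881 to 1.02). By tags the 3 ratios were 0.960 (0.938 to 0.983), 1.04 (1.02 to 1.05) and 0.921 (0.897 to 0.947), so each tag interval left out 1 although the sizes stayed close to it.

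**Figure D1:**
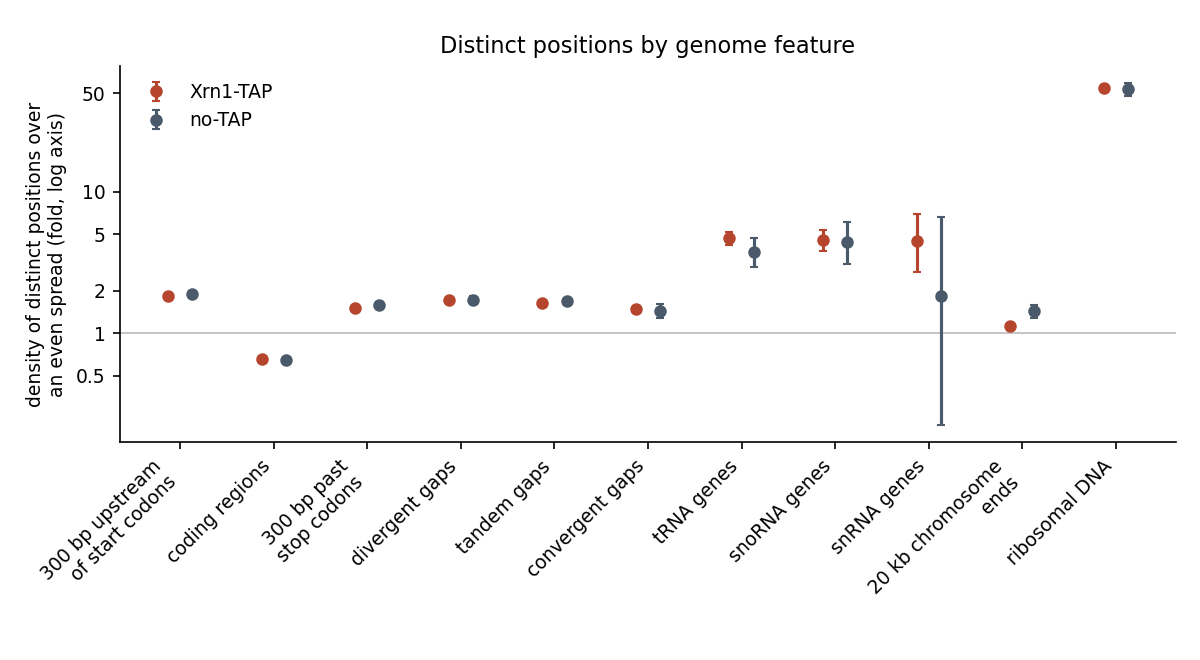
Density of distinct positions in each genome feature over an even spread across the 15 chromosomes used (log axis, fold), for Xrn1-TAP (left point of each pair) and no-TAP (right point), with exact 95% counting intervals. The intervals of a pair overlap in every feature but the chromosome ends, where Xrn1-TAP is at 1.12 and no-TAP at 1.43, and no-TAP rests on 2 positions at snRNA genes.

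No orientation of neighbouring genes had a ratio beyond counting error by positions. Gaps between divergent genes, whose 2 promoters face away from each other, held 2649 Xrn1-TAP and 678 no-TAP positions (ratio 1.00, 0.921 to 1.09; 0.961 by tags). Gaps between tandem genes held 3935 and 1044 (0.967, 0.903 to 1.04), and gaps between convergent genes, which hold no promoter of a coding gene, held 1109 and 277 (1.03, 0.8999 to 1.18). Convergent gaps were at 1.47 times an even spread in Xrn1-TAP and 1.43 times in no-TAP, below the divergent gaps, at 1.72 times in both. Coding regions split by gene length gave ratios between 0.987 and 1.04 in all 5 length classes, from under 500 bp to over 3000 bp. In Xrn1-TAP the density per kb was highest in coding regions under 500 bp, at 1.83 positions per kb, against 0.468 in no-TAP, and lowest in those of 2000 to 3000 bp, at 0.666 and 0.164.

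Of the classes counted over all genes, the one in which the 2 libraries differed by more than counting error in positions was the chromosome ends, a class added after the values were seen. The outer 20 kb of the chromosomes held 1041 Xrn1-TAP positions, 5.89% of those used, and 341 no-TAP positions, 7.51%, a ratio of 0.783 (0.693 to 0.888) and by tags of 0.741 (0.697 to 0.789). These regions are rich in repeated gene families and silenced chromatin. In bins of distance from the end the ratio was 0.791 (0.655 to 0.960) within 5 kb, 0.824 (0.649 to 1.05) at 5 to 10 kb, 0.738 (0.588 to 0.931) at 10 to 20 kb and 0.686 (0.542 to 0.874) at 20 to 30 kb. From 30 to 50 kb it was 0.952 (0.801 to 1.14), from 50 to 100 kb 1.06 (0.963 to 1.17) and farther in 1.02 (0.985 to 1.06). Of the 30 single ends, 21 had a ratio below 1 and 9 above it, over a range of 0.296 to 3.08 with a median of 0.779. With ends of 10 kb the ratio was 0.803, with 30 kb 0.762, without chromosome I 0.785 and without the repeat copies described further on 0.783. Positions within 5 kb of an end carried few tags, 2.90 on average in Xrn1-TAP and 2.09 in no-TAP. The other tagged libraries, set against the same no-TAP library, had ratios of 0.780 (0.696 to 0.876) in Dcp2-TAP and 0.895 (0.796 to 1.01) in Lsm1-TAP. With 1 control, a low share in Xrn1-TAP and a high share in no-TAP cannot be told apart.

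By whole chromosome, the ratio lay between 0.752 and 1.12. Chromosome I was the only one of 16 whose interval left out 1, with 302 Xrn1-TAP and 103 no-TAP positions (0.752, 0.600 to 0.9505). It is also the shortest, at 230197 bp. Its outer 20 kb held 9 Xrn1-TAP and 4 no-TAP positions on the left and 20 and 8 on the right. Whether the ends bear on the ratio of the whole chromosome was not tested. Chromosome XII, which carries the ribosomal DNA, held 3321 and 834 positions, 18.0% and 17.6% of the libraries.

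Around start codons, positions on both strands were densest within 100 bp of the start codon in Xrn1-TAP and no-TAP. Profiles were summed over 5592 coding genes outside the ribosomal DNA and repeat copies, and a position was called sense when its tag ran in the direction of the gene. Xrn1-TAP sense positions were most frequent 100 to 81 bp before the start codon, with 203 in that bin of 20 bp against 91.5 in the median bin. Antisense positions peaked nearer the gene, 60 to 41 bp before the start codon, with 214 against a median of 97. In no-TAP the fullest bins were 100 to 81 bp before the start codon on both strands, with 58 sense and 53 antisense positions.

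**Figure D2:**
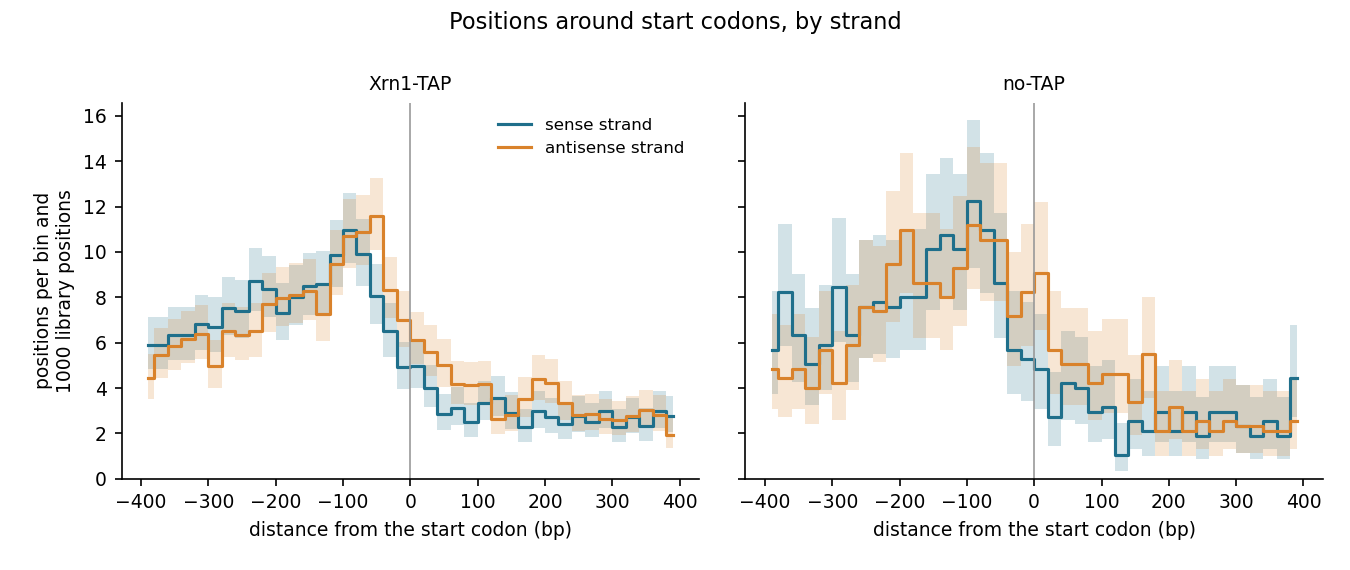
Positions per bin of 20 bp and 1000 library positions by distance from the start codon (bp, negative upstream), for Xrn1-TAP (left panel) and no-TAP (right panel), on the sense and the antisense strand, with bands for exact 95% counting intervals. Both panels rise to about 11 or 12 before the start codon and drop to about 3 inside the gene, and the antisense line lies above the sense line just inside the gene in both.

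Strand shares leaned to antisense at the start and to sense at the end of coding regions in both libraries. Over the whole 300 bp upstream, Xrn1-TAP had 2243 sense and 2246 antisense positions, 50.0% sense (48.5 to 51.4), and no-TAP 605 and 606, also 50.0% (47.1 to 52.8). Counted in tags the Xrn1-TAP share was 51.0% (50.5 to 51.4). Within the last 100 bp before the start codon, Xrn1-TAP had 746 sense and 896 antisense positions, 45.4% sense (43.0 to 47.9), and no-TAP 203 and 226, 47.3% (42.5 to 52.2). In the first 300 bp of coding regions, 849 sense and 1080 antisense positions gave 44.0% sense in Xrn1-TAP (41.8 to 46.3), and 206 and 293 gave 41.3% in no-TAP (36.9 to 45.7). In the last 300 bp of coding regions the balance lay the other way, with 1136 sense and 917 antisense positions, 55.3% sense, in Xrn1-TAP (53.2 to 57.5) and 298 and 245, 54.9%, in no-TAP (50.6 to 59.1). The 300 bp past stop codons of the same genes had 1769 sense and 1629 antisense positions in Xrn1-TAP, 52.1% sense, and 491 and 455, 51.9%, in no-TAP. On both strands together these windows had a ratio of 0.922 (0.858 to 0.992) over the genes used here, against the 0.948 given above for all genes with each position counted once, so whether its interval left out 1 depended on the genes taken. On each strand taken alone, the ratio of Xrn1-TAP to no-TAP held 1 in its interval in all 5 regions, from 0.919 (0.828 to 1.02) for antisense positions past stop codons to 1.06 (0.907 to 1.24) for sense positions of the first 300 bp of coding regions.

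Pairs of borders were sought by taking every forward-strand position with every reverse-strand position 10 to 59 bp away on either side. When a protein shields the DNA between its borders, the reverse-strand border lies downstream of the forward-strand one. In upstream windows, Xrn1-TAP had 611 pairs in that order and 381 in the opposite order, a ratio of 1.60 (1.41 to 1.83), and no-TAP had 60 and 30, a ratio of 2.00 (1.27 to 3.21). In divergent gaps the counts were 347 and 182 in Xrn1-TAP (1.91, 1.59 to 2.29) and 32 and 11 in no-TAP (2.91, 1.43 to 6.397). At snoRNA genes Xrn1-TAP had 35 and 12 such pairs (2.92, 1.48 to 6.17), and no-TAP had 2 and 0. The Xrn1-TAP pairs at snoRNA genes came from 16 blocks of 1 kb, with 13 in 1 block. The order was not beyond counting error in Xrn1-TAP at tRNA genes, with 37 and 22 pairs (1.68, 0.966 to 2.99), against 0 and 3 in no-TAP. Nor was it in convergent gaps, with 111 and 86 pairs (1.29, 0.965 to 1.73), against 10 and 3 in no-TAP (3.33, 0.858 to 18.8).

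Coding regions outside repeats were where the pair order of the 2 libraries parted. Xrn1-TAP had 263 pairs with the reverse border downstream and 145 in the opposite order (1.81, 1.48 to 2.24), most often 30 to 39 bp apart, while no-TAP had 15 and 28 (0.536, 0.266 to 1.04). The odds of the first order were 3.38 times as high in Xrn1-TAP as in no-TAP (1.68 to 7.04). In the ribosomal DNA they were lower in Xrn1-TAP, with 1781 against 1500 pairs there and 164 against 95 in no-TAP, an odds ratio of 0.688 (0.523 to 0.8998). With positions of at least 2 tags these odds ratios became 2.42 (1.00 to 6.04) in coding regions and 0.733 (0.532 to 1.00) in the ribosomal DNA, and the second then held 1. One position can belong to many pairs where positions crowd, so these intervals are too narrow. The 43 no-TAP pairs of coding regions came from 17 blocks of 1 kb, with 8 in 1 block, and the Xrn1-TAP pairs from 229 blocks, with 43 in 1 block.

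At tRNA genes, which RNA polymerase III transcribes from promoter elements inside the gene, the positions fell into a strand pattern that spans the gene. With 50 bp on each side, the 259 tRNA genes held 336 Xrn1-TAP and 69 no-TAP positions, 4.69 and 3.75 times an even spread. The ratio between the libraries was 1.25 (0.962 to 1.64), and without the flanks 1.38 (1.00 to 1.94), just above 1 at its lower bound. Of these genes 172 (66.4%) had a position in Xrn1-TAP and 59 (22.8%) in no-TAP, with at most 11 and 4 positions in a gene. Such numbers of genes, here and below, are not scaled and rise with the positions in a library, of which Xrn1-TAP had 3.90 times as many. The positions at tRNA genes carried 5.18 tags on average in Xrn1-TAP and 4.70 in no-TAP, fewer than the mean of either library.

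In the first 40 bp of tRNA genes Xrn1-TAP had 68 sense and 27 antisense positions, 71.6% sense (61.4 to 80.4), and no-TAP 15 and 6, 71.4% (47.8 to 88.7). In the next 40 bp the antisense strand dominated, with 40 sense and 110 antisense positions in Xrn1-TAP, 26.7% sense (19.8 to 34.5), and 5 and 21 in no-TAP, 19.2% (6.55 to 39.4). The fullest antisense bin was 50 to 59 bp from the 5′ end in both libraries, with 41 Xrn1-TAP and 13 no-TAP positions. From 80 to 41 bp before the 5′ end no such split appeared, with 13 sense and 18 antisense Xrn1-TAP positions, and 4 and 7 no-TAP positions. Nearer the gene, the Xrn1-TAP bin 20 to 11 bp before the 5′ end held 11 sense and 6 antisense positions, and the bin 10 to 1 bp before it 9 and 7. In no-TAP the bin 100 to 109 bp past the 5′ end held 2 sense and 8 antisense positions. The pattern was summed over many genes with few positions each: 49 genes had a sense position in the first 40 bp in Xrn1-TAP, 72 an antisense position in the next 40 bp and 13 had both, against 15, 20 and 0 genes in no-TAP. Counted in tags the Xrn1-TAP shares were 53.9% sense (48.9 to 58.8) and 45.9% sense (41.3 to 50.5), so the strand pattern was one of positions and not of tag numbers.

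**Figure D3:**
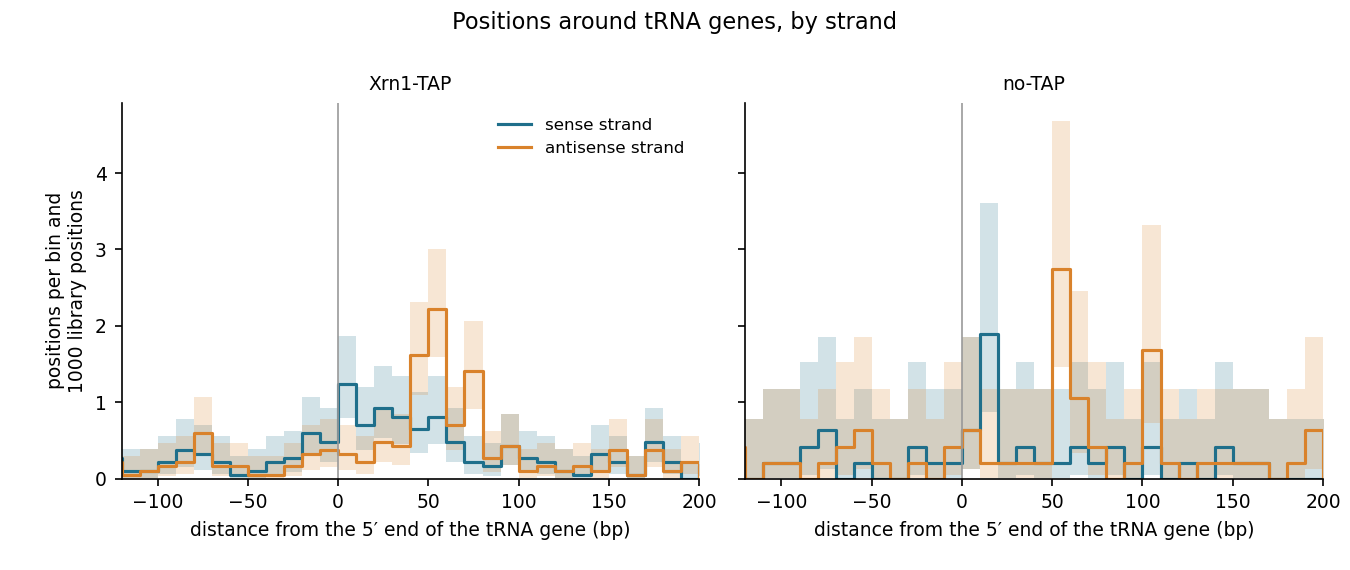
Positions per bin of 10 bp and 1000 library positions by distance from the 5′ end of the tRNA gene (bp), for Xrn1-TAP (left panel) and no-TAP (right panel), on the sense and the antisense strand of 259 genes, with bands for exact 95% counting intervals. The fullest sense bin lies 0 to 9 bp into the gene in Xrn1-TAP, where sense positions spread over much of the gene, and 10 to 19 bp in no-TAP. The fullest antisense bin lies 50 to 59 bp into the gene in both panels, and the no-TAP bins rest on at most 13 positions.

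Among single tRNA genes the most positions in Xrn1-TAP were at SUF1, a glycine tRNA gene, with 11 positions and 92 tags, against 1 and 10 in no-TAP. EMT2, an elongator methionine tRNA gene, had 6 positions and 71 tags, against 1 and 1, a tag ratio of 15.004 (2.61 to 601), and the tRNA gene YNCD0021C had 6 and 67, against 2 and 14. By positions the ratios of these genes were 2.82 (0.410 to 122), 1.54 (0.187 to 70.8) and 0.770 (0.138 to 7.80), each with 1 inside its interval.

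The snoRNA genes, whose RNAs guide the modification or cleavage of ribosomal RNA, held 141 Xrn1-TAP and 35 no-TAP positions with their flanks, 4.56 and 4.41 times an even spread. The ratio was 1.03 (0.710 to 1.54) by positions and 0.859 (0.755 to 0.981) by tags, so its direction depended on the unit. Of 71 genes, 44 had a position in Xrn1-TAP (62.0%) and 24 in no-TAP (33.8%), shares not scaled to the library totals. SNR17A, which encodes the U3 RNA needed for cleavage of the ribosomal RNA precursor, had 11 positions and 106 tags in Xrn1-TAP, against 3 and 26 in no-TAP. SNR30, also needed for that cleavage, had 11 and 59, against 2 and 12. SNR45 had 9 positions and 96 tags in Xrn1-TAP and none in no-TAP, with 29 positions in Dcp2-TAP and 9 in Lsm1-TAP. Its interval by positions began at 0.507, so the 9 positions alone did not exceed what a count of 0 in the shallower library allows.

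The spliceosomal snRNA genes held 19 Xrn1-TAP and 2 no-TAP positions, a ratio of 2.44 (0.588 to 21.6), and by tags 2.88 (1.57 to 5.90). LSR1, the U2 gene, accounted for 11 of them with 111 tags in Xrn1-TAP and for 1 position with 5 tags in no-TAP. SNR19, the U1 gene, had 3 positions and 11 tags in Xrn1-TAP, and the U5 gene SNR7-L had 3 and 10, both at 0 in no-TAP. SNR6, the U6 gene and the only one of these transcribed by RNA polymerase III, was at 0 in Xrn1-TAP and had 1 position with 6 tags in no-TAP. The class of other polymerase III genes, which also counts SNR6, held 3 Xrn1-TAP positions and 1 no-TAP position with flanks. That is 1.01 (0.208 to 2.94) and 1.31 (0.0331 to 7.27) times an even spread, on very few counts. SCR1, the RNA of the signal recognition particle, had 1 Xrn1-TAP position and 0 in no-TAP, and RPR1 and SNR52 had none in either.

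The ribosomal DNA, which the gene table holds as 2 copies of a unit repeated many times in the cell, took 1345 Xrn1-TAP and 340 no-TAP positions, 7.60% and 7.49% of those used. The ratio was 1.02 (0.901 to 1.15). Inside the unit it was 1.16 (0.946 to 1.42) over the 25S gene, 0.898 (0.696 to 1.17) over the 18S gene, 1.0999 (0.782 to 1.58) over the external spacer ETS1, 0.970 (0.570 to 1.73) over the internal spacer ITS1 and 0.975 (0.722 to 1.34) over the spacer between the 2 units. The short parts lay farther from 1 on few counts, with 0.713 (0.322 to 1.74) over the 5.8S gene, 0.545 (0.293 to 1.06) over the internal spacer ITS2 and 0.385 (0.145 to 1.09) over the 5S gene, which had 12 Xrn1-TAP and 8 no-TAP positions. The 25S gene had 295 sense and 237 antisense positions in Xrn1-TAP, 55.5% sense (51.1 to 59.7), and 78 and 40 in no-TAP, 66.1% (56.8 to 74.6). The 18S gene had 163 and 110, 59.7% sense (53.6 to 65.6), in Xrn1-TAP and 35 and 43, 44.9% (33.6 to 56.6), in no-TAP. Reads from any copy can be placed on either, so values of the unit are uncertain.

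A second set of repeats had equal shares of positions in the 2 libraries. A group of 75 unnamed coding frames of at least 1000 bp, with 4 lengths that at least 5 of them share, held 1480 Xrn1-TAP and 380 no-TAP positions, 8.37% of the positions used in both, and 5.05 times an even spread in both. By tags they were at 1.01 times an even spread in Xrn1-TAP and 1.11 times in no-TAP, a ratio of 0.904 (0.826 to 0.991). A frame held between 4 and 61 Xrn1-TAP positions with a median of 25, against 0 to 19 in no-TAP with a median of 7, while the other coding frames held 1.23 and 0.312 on average. Their positions carried few tags, 1.69 on average in Xrn1-TAP and 1.54 in no-TAP. Values of single frames are uncertain, as the copies share sequence.

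The 2 libraries rarely held exactly the same position. Of the Xrn1-TAP positions, 102 (0.552%) were also no-TAP positions, which is 2.15% of the no-TAP positions. Of these 54 lay in the ribosomal DNA, 12 in the repeated frames and 20 in upstream windows. Within 20 bp on the same strand, 6.77% of Xrn1-TAP positions had a no-TAP position and 18.5% of no-TAP positions had an Xrn1-TAP one. Within 100 bp these shares were 18.8% and 38.6%. The shares depend on the number of positions in the library searched, so they are not comparable between the directions.

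Per gene, the upstream windows were sparse. Of 5684 coding genes, 2694 (47.4%) had at least 1 Xrn1-TAP position in the 300 bp before the start codon and 1032 (18.2%) at least 1 no-TAP position. These shares are not scaled to the library totals. There were 653 genes with both, 2041 with Xrn1-TAP alone, 379 with no-TAP alone and 2611 with neither. The mean was 0.865 positions per gene in Xrn1-TAP and 0.228 in no-TAP. A gene was called when the scaled counts differed at least 2-fold, with the library in the denominator set to at least 3 counts. By positions, 0 genes (0%) were called higher in Xrn1-TAP, 130 genes (2.29%) were called lower, 0 genes (0%) had an interval above 1 and 4 (0.0704%) an interval below 1. At this depth a gene needs 24 Xrn1-TAP positions to be called higher against the floor, and 1 gene reached that number. By tags, 285 genes (5.01%) were called higher and 626 (11%) lower, and the tag intervals lay above 1 in 514 (9.04%) and below 1 in 552 (9.71%). Of the 285, 237 had no tag in no-TAP, and they had 3 Xrn1-TAP positions at the median. Of the 626, 302 had no tag in Xrn1-TAP and 500 rested on 1 no-TAP position. When both libraries were scaled to the median ratio of the 653 genes with positions in both, which was 1.5 and shifts every log2 ratio by 1.38, 15 genes were called higher by positions and 2 lower.

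Among the 5665 coding genes outside the ribosomal DNA region, which leaves out TAR1, YLR154C-G and RRT15 described next, genes with more Xrn1-TAP positions had more no-TAP positions. The 2989 genes with no Xrn1-TAP position averaged 0.137 no-TAP positions (0.124 to 0.151), the 1605 genes with 1 averaged 0.207 (0.185 to 0.230), and the 821 with 2 or 3 averaged 0.317 (0.279 to 0.358). The mean was 0.876 (0.744 to 1.03) in the 178 genes with 4 or 5 Xrn1-TAP positions, 1.00 (0.755 to 1.30) in the 56 with 6 to 8, and 3.38 (2.54 to 4.404) in the 16 with 9 or more. The share of genes with any no-TAP position was 12.7% in the lowest class and 87.5% in the highest. Windows of divergent genes can overlap, so some positions enter 2 genes.

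**Figure D4:**
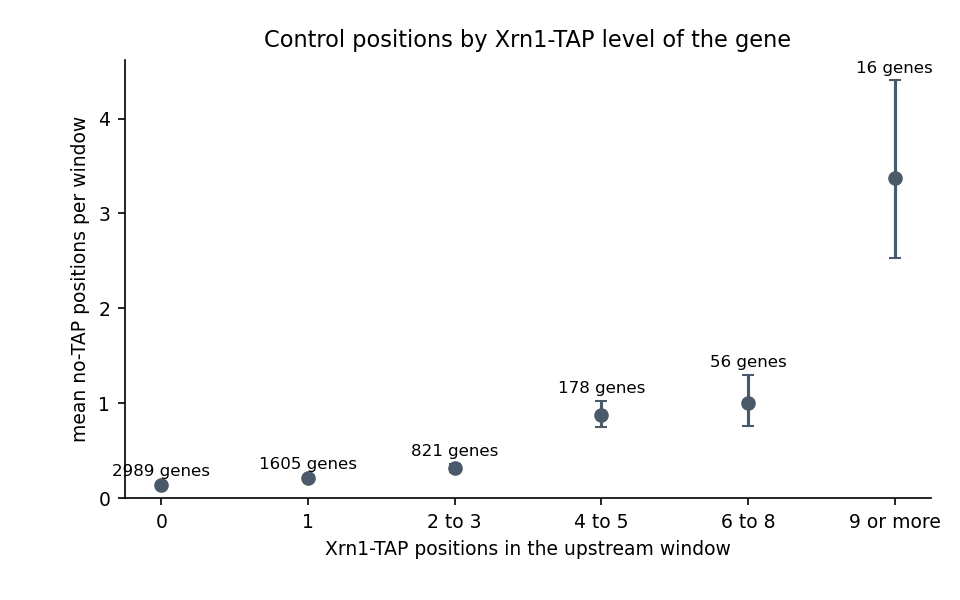
Mean no-TAP positions per upstream window (with exact 95% counting intervals) for the 5665 coding genes outside the ribosomal DNA region, grouped by their number of Xrn1-TAP positions, with the number of genes above each point. The mean climbs over the 6 classes, reaching 3.38 in the 16 genes with 9 or more Xrn1-TAP positions.

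The genes with most Xrn1-TAP positions upstream were, first, 3 uncertain ones in or beside the ribosomal DNA: TAR1 with 26 positions, against 10 in no-TAP, YLR154C-G with 22, against 1, and RRT15 with 20, against 3. CCW12, which encodes an abundant cell wall mannoprotein, had 15 positions and 184 tags in Xrn1-TAP, against 5 and 92 in no-TAP. Its window overlaps that of the divergent frame YLR111W, which has 16 and 185, against 5 and 92, so both count the same tags. RPL9B, a large ribosomal subunit gene, had 12 positions and 121 tags, against 2 and 8, and FAS2, the fatty acid synthase alpha subunit, had 12 and 150, against 6 and 28. ZEO1, a membrane protein tied to cell wall integrity, had 12 and 121, against 3 and 14. TPI1, triose phosphate isomerase, had 12 and 92, against 4 and 21, CDS1, CDP-diacylglycerol synthase, had 12 and 115, against 4 and 32, and ITR1, the myo-inositol transporter, had 11 and 167, against 6 and 67. TDH3, the major glyceraldehyde-3-phosphate dehydrogenase, had 11 and 71, against 6 and 38. All 12 had no-TAP positions, and their ratios by positions lay between 0.471 for TDH3 and ITR1 and 5.65 for YLR154C-G, with 1 inside each interval. By tags TDH3 was at 0.395 (0.263 to 0.602), ITR1 at 0.527 (0.394 to 0.710) and CCW12 at 0.423 (0.327 to 0.549) of no-TAP, and RPL9B at 3.20 (1.57 to 7.57) and ZEO1 at 1.83 (1.05 to 3.44). The windows of RPL9B and CDS1 overlap those of YNL067W-B and RKM3.

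The highest tag ratios among genes with at least 4 Xrn1-TAP positions were at genes of mixed roles, with YLR154C-G among them at 9.43 (3.98 to 29.3). NOC4, a factor in assembly of the small ribosomal subunit, had 8 positions and 107 tags in Xrn1-TAP, against 1 and 1 in no-TAP, a tag ratio of 22.6 (3.97 to 901). TEF1, which encodes translation elongation factor 1A, had 8 and 103, against 1 and 2 (10.9, 2.94 to 91.1). CHL1, a DNA helicase needed for sister chromatid cohesion, had 4 and 91, against 1 and 1 (19.2, 3.37 to 768). No-TAP had 0 positions and 0 tags in 4 more genes: the peroxiredoxin gene AHP1, with 7 positions and 104 tags in Xrn1-TAP, CTH1, an mRNA-binding zinc finger protein, with 5 and 97, AAR2, a maturation factor of the U5 particle, with 10 and 95, and PAC10, a prefoldin subunit, with 4 and 84. With no-TAP set to the floor of 3 tags, the tag ratios were 7.33 (AHP1), 6.83 (CTH1), 6.69 (AAR2) and 5.92 (PAC10). The lower limits of the exact intervals against a count of 0 were 5.85, 5.45, 5.34 and 4.71 in the same order of genes. By positions none of the 8 had an interval that left out 1. The windows of CHL1, CTH1 and PAC10 overlap those of RQC2, GIR2 and YGR079W, so their counts may belong to the neighbour as well. In the other tagged libraries CTH1 had 1 position in Dcp2-TAP and 1 in Lsm1-TAP, PAC10 had 0 and 0, and AAR2 had 26 and 4.

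Among genes with at least 3 no-TAP positions, the highest tag ratios were those of RRT15 (2.57, 1.13 to 7.23), ZEO1, TAR1 (1.34, 0.955 to 1.92) and FAS2 (1.13, 0.752 to 1.76).

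At the other end, the lowest tag ratios among genes with at least 3 no-TAP positions were at GAS1, RPL36B, SYO1 and ADE57. GAS1, a glucanosyltransferase of the cell wall, had 0 tags in Xrn1-TAP and 3 positions with 81 tags in no-TAP. With Xrn1-TAP set to the floor of 3 tags, GAS1 was at 0.00783 times the no-TAP level. The exact interval on the count of 0 had an upper limit of 0.00985. RPL36B had 1 position with 1 tag, against 3 with 16 (0.0132, 0.000315 to 0.0850). SYO1, which escorts ribosomal proteins into the nucleus, had 1 with 2 tags, against 3 with 24 (0.0176, 0.00202 to 0.0709), and ADE57 of purine synthesis had 1 with 3 tags, against 3 with 26 (0.0244, 0.00472 to 0.0796). The 4 genes whose position interval lay below 1 were GAS1 and, named after their values were seen, SSN8 with 3 positions against 6, RPS2 with 4 against 5 and RPL41B with 4 against 5. The window of SSN8 holds the RNA gene NME1. GAS1 had 7 positions in Dcp2-TAP and 2 in Lsm1-TAP.

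Among gene lists by function, several stood above the mean coding gene in both libraries beyond counting error. These were glycolytic and fermentation enzymes, cytoplasmic ribosomal proteins, chaperones, cell wall proteins, inositol and phospholipid synthesis and fatty acid synthesis. Translation elongation factors stood above the mean gene in Xrn1-TAP (4.395, 3.11 to 6.03), while their 6 no-TAP positions left 1 inside the interval (2.63, 0.964 to 5.72). So did the core histones (4.34, 2.93 to 6.19), with 5 no-TAP positions (2.74, 0.889 to 6.39). Ergosterol synthesis and genes silent in glucose stood below the mean gene in Xrn1-TAP, and each had 3 no-TAP positions with 1 inside the interval. Of 21 lists, 1 had an interval of the Xrn1-TAP to no-TAP ratio by positions that left out 1, and 14 by tags, 6 above it and 8 below it. The median coding gene had 0 Xrn1-TAP positions.

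**Figure D5:**
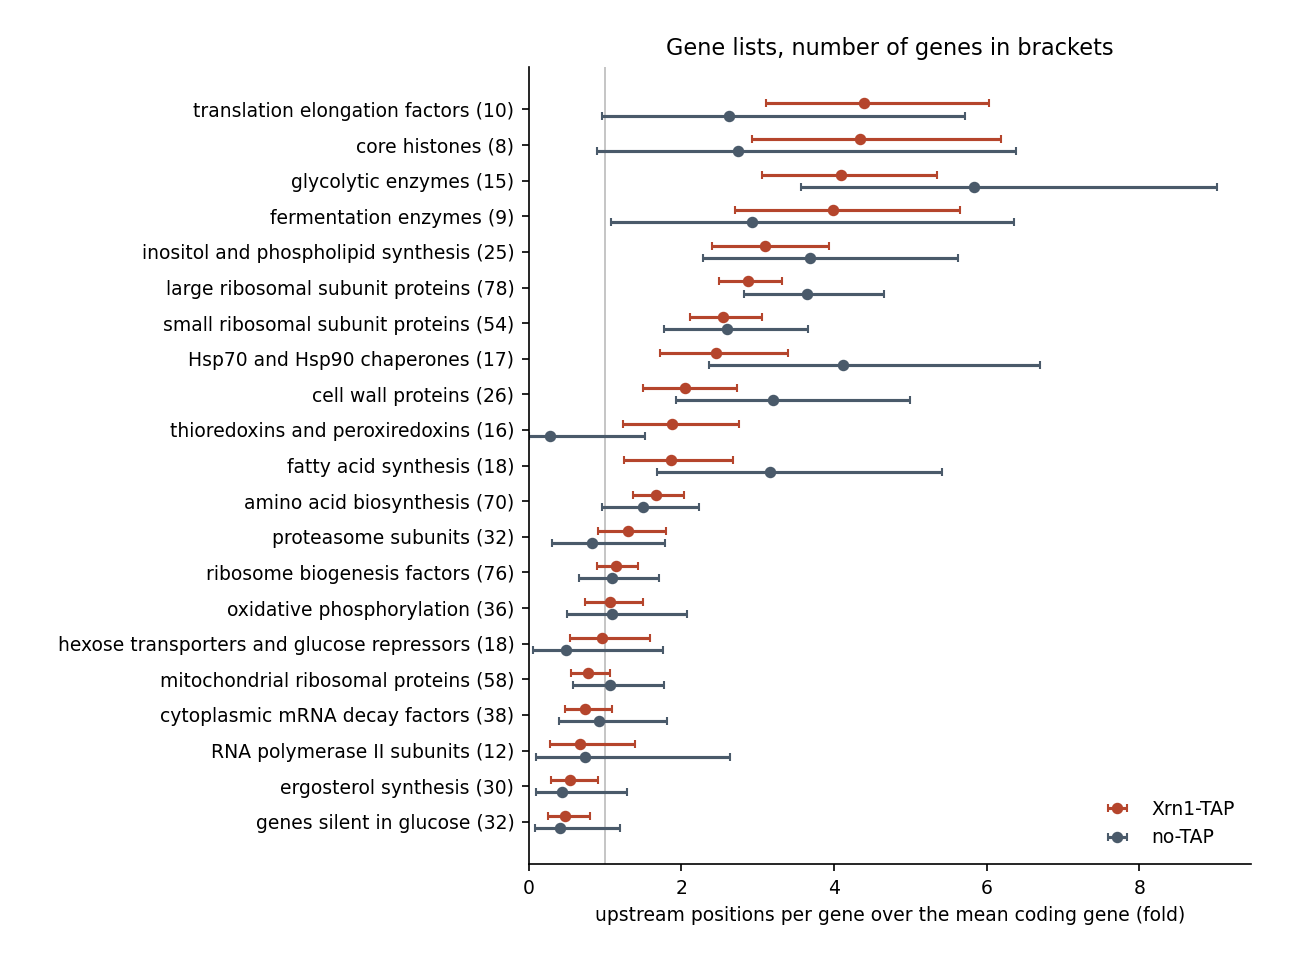
Upstream positions per gene over the mean coding gene (fold) for 21 gene lists, with Xrn1-TAP above no-TAP in each row and exact 95% counting intervals. The lists run from translation elongation factors, at 4.395 in Xrn1-TAP and 2.63 in no-TAP, down to genes silent in glucose, at 0.470 and 0.411, and the intervals of the 2 libraries overlap in every row.

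Among genes for the cytoplasmic ribosome, the 78 large subunit genes held 194 Xrn1-TAP and 65 no-TAP positions, 2.88 (2.49 to 3.31) and 3.65 (2.82 to 4.65) times the mean gene. The ratio was 0.766 (0.576 to 1.03), and 0.707 (0.513 to 0.987) in windows of 150 bp. In Xrn1-TAP 67 of these genes had a position and the median was 2, against 43 genes with one in no-TAP. RPL28 had 8 positions and 63 tags, against 2 and 27, its ratio being 1.03 by positions and 0.493 (0.310 to 0.805) by tags. The 54 small subunit genes held 119 and 32 positions (0.954, 0.641 to 1.46), with RPS14B at 8 against 1 and RPS19A at 6 against 1. By tags 15 large subunit genes were called higher and 21 lower, and 10 and 12 small subunit genes. These were 19.2% and 26.9% of the first list and 18.5% and 22.2% of the second, beside 5.01% and 11% of all genes. A call higher needs at least 29 Xrn1-TAP tags, a call lower needs no-TAP tags, and these windows hold more tags than most. No-TAP positions lay in 55.1% of the large and 40.7% of the small subunit genes, beside 18.2% of all genes. The shares of calls are therefore not comparable with those of all genes.

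The 76 ribosome biogenesis genes, which make and assemble the subunits, held 75 and 19 positions (1.01, 0.606 to 1.78; 1.33 by tags), with NOC4 at 8 positions against 1 and RCL1, which acts in pre-ribosomal RNA cleavage, at 5 against 1. The 10 elongation factor genes held 38 and 6 positions (1.63, 0.682 to 4.70). Of them 5 (50%) were called higher by tags, beside 5.01% of all genes. A call higher needs at least 29 Xrn1-TAP tags, and this list stood at 4.395 times the mean gene in Xrn1-TAP. YEF3, elongation factor 3, had 7 positions and 67 tags against 0. Mitochondrial ribosomal proteins, at 39 and 14 positions in 58 genes, were near the mean gene in both libraries (0.715, 0.380 to 1.43). MRPS17 had 5 positions against 1, in a window shared with GCV2, and MRPL39 had 4 against 2.

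Taken as lists, glycolytic and fermentation genes held more positions than the mean gene in both libraries, and hexose transporter genes did not. The 15 glycolytic genes held 53 and 20 positions, 4.09 and 5.84 times the mean gene, a ratio of 0.680 (0.400 to 1.20) by positions and 0.505 (0.414 to 0.618) by tags. The 9 fermentation genes held 31 and 6, 3.98 and 2.92 times the mean gene (1.33, 0.545 to 3.89; 0.940 by tags). Few genes held much of these counts. TPI1 and TDH3 had 12 and 11 of the glycolytic Xrn1-TAP positions and 4 and 6 of the no-TAP ones. PDC1 and ADH1 had most of the fermentation positions in both libraries. The median gene held 2 Xrn1-TAP positions in the glycolytic list and 1 in the fermentation list. PDC1, pyruvate decarboxylase, had 10 positions and 94 tags, against 2 and 8, while ADH1, alcohol dehydrogenase, had 10 and 73, against 3 and 46, so the tag ratios of these neighbours in the pathway were 2.48 (1.21 to 5.92) and 0.335 (0.229 to 0.496). The 18 hexose transporter and glucose repressor genes held 15 and 2 positions, 0.964 and 0.487 times the mean gene, with HXT1 and HXT2 at 3 positions each and 0 in no-TAP, a list ratio of 1.92 (0.448 to 17.3) by positions and 4.44 (1.98 to 12.3) by tags.

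The list whose position interval left out 1 was thioredoxins and peroxiredoxins, small proteins that reduce disulfides and peroxides. Its 16 genes held 26 Xrn1-TAP positions and 1 no-TAP position, a ratio of 6.67 (1.096 to 274), and by tags 7.82 (3.74 to 19.6). In Xrn1-TAP 9 of the genes had a position, and 3 held 20 of the 26: TRX1, a thioredoxin, with 9 positions and 64 tags, AHP1 with 7 and 104, and the peroxiredoxin TSA1 with 4 and 58. In no-TAP TSA1 had the 1 position, with 7 tags, and TRX1 and AHP1 none. The list was called on a no-TAP count of 1 among 21 lists, and it did not hold in other windows: the ratio was 5.39 (0.867 to 223) in 150 bp and 1.03 (0.463 to 2.58) in 500 bp.

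Chaperone, cell wall and lipid lists had ratios below 1 by positions, each with 1 inside its interval. All of these lists stood above the mean gene in both libraries. Chaperones were at 2.45 times the mean gene in Xrn1-TAP and 4.12 in no-TAP, and cell wall genes at 2.05 and 3.20. Inositol and phospholipid genes were at 3.10 and 3.68, and fatty acid genes at 1.86 and 3.16. The 17 Hsp70 and Hsp90 chaperone genes held 36 and 16 positions (0.577, 0.312 to 1.11; 0.407 by tags), with HSC82 at 5 positions and 26 tags against 3 and 25 and SSA1 at 5 and 21 against 1 and 8. The 26 cell wall genes held 46 and 19 (0.621, 0.357 to 1.12; 0.356 by tags), CCW12 holding 15 of the Xrn1-TAP positions. The second cell wall gene, CIS3, had 3 positions and 29 tags against 0. The 18 fatty acid genes held 29 and 13 (0.573, 0.288 to 1.20), with FAS2 holding 12 and 6 of them and ELO1, a fatty acid elongase, 4 and 0. The 25 genes of inositol and phospholipid synthesis held 67 and 21 (0.819, 0.495 to 1.41). By tags 7 chaperone genes (41.2%), 7 cell wall genes (26.9%) and 3 fatty acid genes (16.7%) were called lower, beside 11% of all genes. Only a gene with no-TAP tags can be called lower. No-TAP positions lay in 47.1% of the chaperone, 42.3% of the cell wall and 33.3% of the fatty acid genes, beside 18.2% of all genes. These shares of calls are therefore not comparable with that of all genes. Of the inositol and phospholipid genes 5 (20%) were called higher, beside 5.01% of all genes, and 3 (12%) lower, near the 11% of all genes. A call higher needs at least 29 Xrn1-TAP tags, and this list stood at 3.10 times the mean gene in Xrn1-TAP. Its share of calls higher is therefore not comparable with that of all genes either.

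The 8 core histone genes held 30 and 5 positions (1.54, 0.592 to 5.08), with a median of 4.5 Xrn1-TAP positions per gene, and HTA2 and HTB1 each had 5 against 1. The 32 proteasome genes held 36 and 6 (1.54, 0.643 to 4.47), with RPN4, the transcription factor of proteasome genes, at 5 positions against 0 and RPN5 at 4 against 0. The 70 amino acid synthesis genes held 101 and 24 (1.08, 0.687 to 1.76; 0.842 by tags), where GLN1, glutamine synthetase, had 7 positions against 0 and GLY1, threonine aldolase, 8 against 3. The 36 oxidative phosphorylation genes were near the mean gene, with 33 and 9 (0.941, 0.441 to 2.24), and ATP2 and ATP15, subunits of the ATP synthase, had 4 positions each and 0 in no-TAP.

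Genes silent in glucose and ergosterol genes held fewer Xrn1-TAP positions than the mean gene. The 32 genes silent in glucose, such as those of galactose use and sporulation, held 13 and 3 positions, 0.470 (0.250 to 0.804) and 0.411 (0.0847 to 1.20) times the mean gene. SPS1, a sporulation kinase gene, held 7 of the 13 with 50 tags, against 1 and 10 in no-TAP, and DMC1, a meiotic recombinase, held 2 against 0. The 30 ergosterol genes held 14 and 3 (1.20, 0.334 to 6.50), with ERG4 and ERG5 at 2 each against 0 and 1. In Xrn1-TAP they were at 0.540 (0.295 to 0.906) times the mean gene. The 12 RNA polymerase II subunit genes held 7 and 2 (0.898, 0.171 to 8.86), RPB10 having 3 against 2 and RPO26 1 against 0. This list was not apart from the mean gene in Xrn1-TAP (0.675, 0.271 to 1.39).

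Genes for the cytoplasmic mRNA decay machinery, of which Xrn1 is a member, were not higher than other genes. The 38 genes held 24 Xrn1-TAP and 8 no-TAP positions, 0.731 (0.468 to 1.09) and 0.922 (0.398 to 1.82) times the mean gene, and a ratio of 0.770 (0.335 to 1.98) by positions and 0.553 (0.423 to 0.731) by tags. PAB1, the poly(A)-binding protein, had 3 positions against 0 and DCS2, a regulator of the scavenger decapping enzyme, 2 against 0. The tagged locus itself was not distinct: the window upstream of XRN1, which overlaps that of NUP49, had 1 position with 5 tags in Xrn1-TAP and 0 in no-TAP. The tag was joined to the gene's product, so this locus is no check of the labels, and the files hold no other check of which library carried the tag.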

How the data were processed

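ChIP-exo libraries of Xrn1-TAP and no-TAP cells were compared, with Dcp2-TAP and Lsm1-TAP beside them in a few values. The deposited files hold counts of tags per chromosome index and strand, per the file headers, with no normalization. Which aligner, build and filters were used, and how duplicates were handled, is not given in the sources used here. A RefSeq R64 gene table was therefore moved along each chromosome in steps of 10 bp. The lag that put most positions upstream of start codons was at most 10 bp on 13 of the 15 chromosomes used and at most 30 bp on all of them, and 370 bp on chromosome XI, which was left out. No coordinates are printed, and promoter sequences and motifs were not analysed here.

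Distinct positions were counted in windows of 300 bp before start and after stop codons, in coding regions, gaps, RNA genes with 50 bp on each side and the ribosomal DNA, and divided by the library totals of positions over all chromosomes. Gaps and start codon profiles leave out the ribosomal DNA and its flanks. Ratios have exact conditional binomial intervals, shares Clopper-Pearson intervals, counts exact Poisson intervals and pair orders conditional odds ratios, all at 95%. Tags and fragments copied by PCR are not independent, so intervals cover counting error only. Python 3.11.15, numpy 2.4.6, pandas 2.3.3, scipy 1.17.1 and matplotlib 3.10.9 were used, and the gene ratios were tested on simulated counts.

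Named genes were the 12 with most Xrn1-TAP positions upstream, the 8 highest tag ratios among genes with at least 4 of them, the 4 highest and 4 lowest tag ratios among genes with at least 3 no-TAP positions, the 2 highest members of each list, XRN1 and the 3 highest genes of each RNA class. Among named genes whose overlap is not given with their counts, the windows of RPS14B, RPN5, ELO1, ERG4, RPB10 and RPO26 overlap that of a neighbour. The comparison, the members and the lists were chosen with earlier results of these data known. The alternatives were tags in place of positions, positions with at least 2 tags, thinning of Xrn1-TAP to the no-TAP tag total, removal of the ribosomal DNA, windows of 150 and 500 bp, a gene table moved by 30 bp, RNA genes without flanks, scaling to the median ratio, a minimum of 10 tags over both libraries and list members without an RNA gene in the window. The chromosome ends, the pair orders and their alternatives were added after seeing the data.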

Additional observations from a re-analysis of the deposited data

How the results depend on the processing

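No paired analysis was possible because each strain had 1 library and the labels give no replicate numbers. With 1 library a side the values compare libraries and not strains, and the depth of no-TAP limits every ratio: thinned to the no-TAP tag total, Xrn1-TAP kept 12147 positions, 2.56 times those of no-TAP. Counting tags in place of positions changed most calls. By tags the ratio was 0.960 upstream, 1.04 in coding regions, 0.921 downstream, 0.939 in tandem gaps, 1.14 at tRNA genes and 2.88 at snRNA genes, all with 1 now outside the interval, and 0.961 in divergent gaps and 0.859 at snoRNA genes, which turned the direction. The sense share by tags was 51.0% upstream, also turned, and 53.9% and 45.9% in the first and next 40 bp of tRNA genes, no longer apart from even. By tags the lists of mitochondrial ribosomal proteins (0.722), mRNA decay factors (0.553), glycolytic enzymes (0.505), chaperones (0.407), cell wall proteins (0.356), inositol and phospholipid synthesis (0.782) and fatty acid synthesis (0.684) lay below 1, ribosome biogenesis (1.33), histones (1.71), hexose transporters (4.44), elongation factors (4.03) and the proteasome (1.65) lay above it, and amino acid synthesis (0.842) and the gene RPL28 (0.493) turned the direction.

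Gene calls moved with the unit, the window and the scaling. Numbers called higher and lower are not comparable within a setting, since the floor weighs differently on the 2 libraries. By tags 285 genes were called higher and 626 lower, with intervals above 1 in 514 and below 1 in 552. With positions of at least 2 tags, 2 genes, GAS1 and SSN8, had an interval below 1. In windows of 150 bp 65 genes were called lower and 2, GAS1 and RPL41B, had an interval below 1. In windows of 500 bp 2 genes, YLR154C-G and RRT15, were called higher and 204 lower, with 1 interval above 1, that of YLR154C-G, and 7 below. Scaled to the median ratio, 15 genes were called higher and 2, ADO1 and SSN8, lower, with 6 intervals above 1 and 0 below. Single genes were named here after their values were seen.

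Other settings ended or made a call in few results. The downstream ratio was 0.890 with at least 2 tags, 0.883 in 150 bp and 0.927 with the gene table moved by 30 bp, and the tandem gap ratio 0.921 with at least 2 tags, each then below 1 beyond counting error. Without flanks the tRNA ratio was 1.38. In windows of 150 bp the large ribosomal subunit list was at 0.707 and the thioredoxin list at 5.39, which in 500 bp was at 1.03. The pair order of the ribosomal DNA was at 0.733 with at least 2 tags. The other 154 of 202 values kept their side of the threshold, or the count moved by at most 1.5 times, but 22 of them crossed 1 with 1 inside the interval in both settings. By tags these were convergent gaps (0.955), ergosterol (0.894), genes silent in glucose (0.916), fermentation (0.940) and RNA polymerase II (1.93). Thinned to the no-TAP tag total, the upstream ratio was 1.02 and the coding ratio 0.986. The cause of these changes was not tested.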
